A study of Mus musculus with 3 samples.

Results

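The sites described here are CCGG sites of the mouse autosomes that were listed with methylation reads on day 7 of differentiation in the presence of pargyline and in neither of the other samples of the series. They were selected on the reads themselves: at least 10 reads in the treated sample, and no row for the position in the undifferentiated and the untreated list. By this rule, 15322 of the 969569 autosomal CCGG sites listed in at least 1 sample were members (1.58%). The reads that chose the members are given as a description and were not tested.

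The study used MethylRAD, in which the enzyme FspEI cuts beside methylated cytosines and releases short fragments that are sequenced and counted per site, so that reads at a CCGG site increase with its methylation. The undifferentiated sample was E14Tg2A, a mouse embryonic stem cell (ESC) line, in medium with leukemia inhibitory factor (LIF). The untreated sample was the same line on day 7 after LIF was withdrawn and retinoic acid was added, and the treated sample was differentiated in the same way with 3 mM pargyline, an inhibitor of monoamine oxidases and of the histone demethylase LSD1. Each sample was 1 library, without replicates, and the labels could not be checked against marker genes because the libraries hold genomic DNA.

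In mammalian cells, most CpG sites are methylated, whereas CpG-rich stretches at gene starts (CpG islands) are mostly free of methylation. LSD1, also named KDM1A, removes methyl groups from histone H3 and works in complexes with histone deacetylases, for example when the enhancers of pluripotency genes are silenced during differentiation. The start sites of many transcription factors of the early embryo, such as the Hox and other homeobox genes, lie in broad CpG-rich regions that Polycomb proteins bind in ESCs. The comparison asked where the treated sample alone gained methylation reads.

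The depth was 50959931 mapped reads for the undifferentiated sample, 73712891 for untreated cells and 67235311 for treated cells. A position with fewer than 5 reads was not listed, so a member could have had up to 4 reads in each of the other samples. As RPM (reads scaled to the mapped reads of the library), 10 reads in the treated sample equal 0.149. The 4 reads below the limit equal 0.0785 RPM in undifferentiated and 0.0543 RPM in untreated cells. The intervals below are 95% Wilson intervals and cover counting error only, since PCR copies of a fragment were not separated.

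Members had few reads. They had 10 to 71 reads in the treated sample with a median of 13 and quartiles of 11 and 16, and together they held 220973 reads, or 0.892% of the autosomal CCGG reads of that sample. Of the members, 48.2% had 10 to 12 reads, 13.5% had at least 20 reads, and 7 sites had at least 50 reads. Just inside the minimum, 3090 members had 10 reads, and just outside it, 3975 sites that met the rest of the rule had 9 reads.

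The members were 2.55% of the 601850 CCGG motifs without a row in the undifferentiated and untreated lists. The mirror set, with at least 10 reads in the untreated sample and no row in the others, held 6206 sites, or 1.08% of its 576877 motifs. The members thus outnumbered these untreated-only sites by a ratio of 2.47, although the untreated library had more mapped reads. It also had more autosomal CCGG reads, 35286914 compared with 24778383 for treated cells. The libraries differed in composition, since CCGG sites took up 38.3% of the mapped reads of treated cells. Untreated cells had 49.7% and cells before differentiation 62.0%. RPM is scaled to all mapped reads and leaves this difference in place, and its part in the ratio was not tested. With the minimum set to the same RPM, 11 reads in the untreated sample, the ratio was 3.31. Many unlisted motifs lie in repeats to which reads cannot be assigned, and among motifs whose surrounding 28 bases occur at a single place in the genome, the shares were 4.72% for the members and 2.09% for the untreated-only sites. These shares describe what the rule selected.

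By position in the gene annotation (GENCODE M21 basic), 34.7% of the members were intergenic, 33.9% were in introns and 23.2% (3557 sites, interval 22.6 to 23.9%) were within 1 kb of a transcription start site, here called promoters. Other exons held 5.42% and 3′ UTRs 2.25%. The promoter share of the members was above that of the untreated-only sites (18.1%, interval 17.2 to 19.1%), of the 23197 sites gained in both day 7 samples (11.9%) and of the 26371 sites listed in the undifferentiated sample alone (5.82%). In contrast, only 7.03% of all treated CCGG sites with at least 10 reads were in promoters, compared with 14.5% of all CCGG motifs. Exons held fewer of the members than of the untreated-only sites (5.42% and 9.43%).

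The promoter share of the members has to be read against the motifs that were open to the rule. Of the unlisted single-copy motifs, 43.7% were in promoters, and 2.62% of these became members, compared with 6.35% of those farther than 1 kb from a start site. Over all unlisted motifs, repeats included, the shares were closer, with 2.41% in promoters and 2.59% farther away. In low CpG windows alone the order of the single-copy shares was reversed, with 7.19% (6.81 to 7.60%) in promoters and 6.21% (6.09 to 6.33%) farther away, whereas in high windows it was 0.967% and 3.44%. Within promoters, the single-copy share rose with distance from the start site, from 1.95% within 250 bp to 2.70% from there to 500 bp and 4.58% from there to 1000 bp. For the untreated-only sites, the single-copy shares over all windows were 0.874% of the promoter motifs and 3.06% of the others, an order like that of the members. In low CpG windows, however, the order of the untreated-only shares was not reversed. They were 2.47% (2.23 to 2.74%) in promoters and 3.13% (3.03 to 3.22%) farther away.

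Windows of 500 bp were classed by CpG content. High windows had more than 55% GC and an observed to expected CpG ratio over 0.75, and low windows had a ratio under 0.48. Low CpG windows held 71.4% of the members, intermediate windows 22.5% and high windows 6.08% (931 sites, interval 5.71 to 6.47%). Of the single-copy motifs open to the rule, 6.31% became members in low, 5.10% in intermediate and 1.17% in high windows. The share was thus lowest in high windows. Farther than 1 kb from a start site, it was highest in intermediate windows. There the shares were 6.21% in low, 8.42% (8.03 to 8.83%) in intermediate and 3.44% in high windows. Over all single-copy motifs, the ratio to the untreated-only share was 2.06 in low, 3.24 in intermediate and 2.07 in high windows. It was thus highest in the intermediate class. Farther than 1 kb from a start site, the ratio was 1.99 in low, 2.70 in intermediate and 2.83 in high windows. There the intermediate class was not the highest. Within promoters alone, intermediate windows held 45.9% of the members and the ratio was 3.86, with 3.68% of the motifs as members and 0.953% as untreated-only sites.

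Members with more reads were less often in promoters. The promoter share was 28.5% at 10 reads and 12.8% at 20 or more, and the share in high CpG windows was 9.32% and 2.37%, respectively. The untreated-only sites had the same trend, with promoter shares of 21.5% at 10 reads and 9.78% at 20 or more. By chromosome, members numbered 480 to 1269, with the most on chromosome 2. Their share of unlisted motifs was between 2.06% on chromosome 3 and 3.51% on chromosome 11, and the ratio to untreated-only sites was between 2.24 and 2.69 on all 19 autosomes.

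The 10 members with the most reads were in low CpG windows, and each had 28 bases that occur at a single place in the genome. The first of these, with 71 reads (1.06 RPM), was an intergenic site 42162 bp from the nearest start site of a protein-coding gene, Gpr137b. Both other CCGG sites within 1 kb of it were listed in every sample, with 192 reads before differentiation and 165 untreated and 92 treated reads on day 7. The site was thus listed in the treated sample alone, beside sites that had reads in every sample. The next had 56 reads and lay in Fgfr2, which encodes a receptor for fibroblast growth factors, and in Gm34908, within 1 kb of an annotated start site. The third and the fourth, with 55 and 53 reads, were intergenic, with Pcdh7 and Slc17a6 as the nearest protein-coding start sites, and the fifth, with 52 reads, was in an intron of Mttp and had no other CCGG motif within 1 kb. The remaining ones had 48 to 50 reads, and lay in Macf1, in introns of Prim2 and Sntb2, and between genes, with Krt18 and Nfib as the nearest protein-coding start sites. The reference bases (GRCm38, forward strand, RefSeq sequence of GRCm38.p6) around the first 5 are shown because they are the highest readings of the set, with the member CCGG in capitals.
chr13:13351440-13351467: cattttctaaacCCGGgatttaaaaatc
chr7:132365054-132365081: ctaattattcccCCGGaaaaaaatcctg
chr5:55887759-55887786: aacaaatggggcCCGGgggggggtgtgt
chr7:51711439-51711466: acaaaaatataaCCGGgagttatttggt
chr3:138105106-138105133: gcaaccaaatccCCGGtgtttaaaaaaa

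Members were partly clustered. Another member lay within 1 kb of 2984 members (19.5%, interval 18.9 to 20.1%), compared with 16.6% (15.7 to 17.5%) of the untreated-only sites. This order was reversed with a minimum of 20 reads in both sets (5.85% and 15.7%). It was also reversed when the members were taken at a minimum of 14 reads, which leaves 6407 sites, a number near that of the untreated-only sites: 12.4% of these had another within 1 kb. The kind of cluster differed, since pairs of untreated-only sites were mostly neighbours on the same fragment: the median span of their groups was 12 bp, compared with 139.5 bp for members. Sites within 40 bp share fragments and are no separate observations. In a comparison chosen after seeing the data, another member lay 41 bp to 1 kb away from 13.4% of the members (12.8 to 13.9%), and the same held for 2.18% of the untreated-only sites (1.84 to 2.57%).

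Members were also joined into chains with steps of at most 1 kb. Chains of at least 3 members numbered 305 and held 1162 members (7.58%), whereas the untreated-only sites formed 13 such chains with 40 sites (0.645%). At least 5 members were found in 52 chains, and the longest had 15, whereas no untreated-only chain exceeded 4 sites. A larger set forms more chains, and so the members were also counted at a minimum of 14 reads, chosen after seeing the data because it leaves a similar number (6407 sites). These formed 72 chains of at least 3, of which 8 had at least 5, and 7.44% had another 41 bp to 1 kb away. With a minimum of 5 reads in the untreated sample, 28587 untreated-only sites, more than the members, formed 474 chains of at least 3 and 28 of at least 5, and 12.1% had another 41 bp to 1 kb away. With the same minimum of 5 reads in the treated sample, 52601 sites formed 2416 chains of at least 3 and 618 of at least 5, and 27.8% had another 41 bp to 1 kb away. These values thus depend on the minimum and on the number of sites.

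The longest chain spanned Prdm12, a zinc finger regulator of pain-sensing neurons, and its antisense transcript Gm13425 (chr2:31639114-31641433). All 15 members of this chain were in promoters and in intermediate CpG windows, with 10 to 29 reads each. Of its 20 CCGG motifs, 1 was listed in undifferentiated cells with 12 reads, 3 were listed in untreated cells with 23 reads, and all 20 in treated cells with 311 reads. Every motif of the region was thus listed in the treated sample, 5 of them without being members.

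The next chains are given in order of their members, with ties ordered by reads. The second chain, in Lhx2 (chr2:38355272-38357554), a LIM homeobox gene needed for eye and forebrain, had 10 members, and 3 of its 15 motifs were listed in undifferentiated cells, 3 in untreated cells and 14 in treated cells. The third, at Dbx1 (chr7:49635596-49640104), a homeobox gene of interneuron progenitors, had 10 members, and 4, 6 and 16 of 21 motifs were listed in the undifferentiated, untreated and treated sample. The fourth covered the start sites of Nr2e1, a nuclear receptor of neural stem cells, and Ostm1 (chr10:42582007-42584883). It had 10 members, and 1, 1 and 17 of 28 motifs were listed in the same order, with 5, 7 and 179 reads. The fifth was in Shh (chr5:28459562-28460876), which encodes the signalling protein Sonic hedgehog, 7039 bp from its start site. There 9 members were found, and 1, 0 and 10 of 10 motifs were listed. A chain at Ache and Gm42456 also had 9 members, with fewer reads (121, compared with 139). In all 5 chains, more sites were listed in the treated than in the untreated sample, as the rule itself favours. Treated reads were also found at CCAGG motifs, in which the inner cytosine is not part of a CpG. In the Lhx2 chain, 6 of 8 CCAGG motifs were listed in the treated sample with 131 reads, in the Dbx1 chain 12 of 14 with 114 reads and in the Shh chain 7 of 8 with 64 reads. In the Prdm12 chain 1 of 3 was listed with 8 reads, and in the Nr2e1 chain 0 of 2. The chains thus differed in their reads at this motif, and its part in them was not tested.

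The 3 windows of at most 300 bases with the most members outside UTRs are shown, because they give the sequence in which members were densest (GRCm38, forward strand, RefSeq sequence of GRCm38.p6, with member CCGG in capitals and other CCGG in lower case). The first is in an intron of Unc45b, which encodes a myosin chaperone, and of Unc45bos. It holds 17 CCGG motifs in a repeating pattern of short CG-rich units, of which 7 were members. Listed sites numbered 2 with 16 reads before differentiation, 0 in untreated cells and 14 with 133 reads in treated cells, and each motif had its own 28 bases at a single place in the genome. The window in Shh has 6 members among 7 motifs, with 7, 0 and 113 reads at 1, 0 and 7 listed sites in the undifferentiated, untreated and treated sample. The window in an exon of Gm13425, 2009 bp from the start of Prdm12, has 5 members among 6 motifs, with 5, 0 and 110 reads at 1, 0 and 6 listed sites. Neighbouring members in these windows share fragments.
chr11:82930127-82930426: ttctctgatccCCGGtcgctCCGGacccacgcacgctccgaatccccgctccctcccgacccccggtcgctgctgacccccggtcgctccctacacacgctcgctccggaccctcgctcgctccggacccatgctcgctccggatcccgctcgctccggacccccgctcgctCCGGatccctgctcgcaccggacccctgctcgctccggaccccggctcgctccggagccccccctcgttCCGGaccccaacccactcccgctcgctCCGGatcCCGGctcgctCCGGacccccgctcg
chr5:28459853-28460152: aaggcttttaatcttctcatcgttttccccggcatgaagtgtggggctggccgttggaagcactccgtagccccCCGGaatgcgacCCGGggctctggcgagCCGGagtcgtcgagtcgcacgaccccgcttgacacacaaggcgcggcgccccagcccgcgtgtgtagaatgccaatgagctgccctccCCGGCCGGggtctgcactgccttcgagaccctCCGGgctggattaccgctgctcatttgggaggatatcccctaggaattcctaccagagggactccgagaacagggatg
chr2:31637879-31638178: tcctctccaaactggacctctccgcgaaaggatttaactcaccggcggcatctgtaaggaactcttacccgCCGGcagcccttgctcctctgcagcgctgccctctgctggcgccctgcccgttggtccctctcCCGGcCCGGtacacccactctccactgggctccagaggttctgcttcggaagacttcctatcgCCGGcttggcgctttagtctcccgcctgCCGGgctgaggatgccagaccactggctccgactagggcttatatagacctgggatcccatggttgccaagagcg

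In total, 3126 genes had at least 1 member within 1 kb of a start site, or 7.81% of the 40033 autosomal genes with a CCGG motif there, and 3.03% had an untreated-only site. Of the genes with a member, 2230 were protein-coding (12% of 18569), 208 were lincRNA and 201 antisense genes. At least 3 members were found at 209 genes and at least 5 at 30, whereas 5 genes had at least 3 untreated-only sites and none had 5. Sites within 40 bp of each other share fragments but were counted separately in all gene counts. Another member lay within 40 bp of 8.39% of the members, and the same held for 14.6% of the untreated-only sites. With a minimum of 14 reads, which leaves 6407 members, at least 3 were found at 44 genes. With a minimum of 5 reads in both sets, at least 3 sites were found at 2010 genes for treated-only and at 481 for untreated-only sites. These gene counts thus depend on the minimum and on the number of sites. Genes with both kinds of site numbered 165.

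The 20 genes with the most members included the transcription factor genes Prdm12, Pitx1, Maf, Lhx9, Sox14 and Hoxa11. Prdm12 had the most, with 11 members at positions −923 to 769 bp relative to its start site. Within 1 kb of that start, 0 of 14 CCGG motifs were listed in undifferentiated cells, 2 with 17 reads in untreated cells and all 14 with 239 reads in treated cells. Gm13425 had 11 members as well, most of them shared with Prdm12. Ache, which encodes acetylcholinesterase, and the overlapping lincRNA gene Gm42456 had 8 members each. At Ache, 4 of 21 motifs were listed with 27 reads in undifferentiated cells, 4 with 26 reads in untreated cells and 16 with 227 reads in treated cells. Grin2a, a subunit gene of NMDA-type glutamate receptors, had 7 members with 10 to 21 reads, and 3, 7 and 18 of its 24 motifs were listed in the undifferentiated, untreated and treated sample.

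Pitx1, a homeobox gene of hindlimb and pituitary, had 7 members with 10 to 12 reads each, all close to the minimum. Of its 21 motifs, 0 were listed in undifferentiated cells, 1 with 8 reads in untreated cells and 13 with 111 reads in treated cells. Maf, a leucine zipper factor of the lens, had 6 members, each with exactly 10 reads, so that a minimum of 11 would remove all of them. Some of these lie within 40 bp of each other and share fragments.

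Further genes with 6 members each were the lincRNA gene 5033428I22Rik, Rgs20, a regulator of G-protein signalling, Lbh, Lgr5, a receptor that marks intestinal stem cells, and Ostm1. At Lgr5, 1, 3 and 9 of 17 motifs were listed with 15, 39 and 100 reads in the undifferentiated, untreated and treated sample. At Rgs20, 3, 2 and 14 of 16 motifs were listed with 67, 43 and 177 reads. At Lbh, 2, 4 and 13 of 20 motifs were listed with 22, 39 and 136 reads. These promoters thus had some listed sites in the other samples too. Of the genes with 5 members, those with the most reads completed the 20: Lhx9, a LIM homeobox gene of the gonad, Sox14, Hoxa11 and the RNA genes Gm27492, Gm27695 and Gm28032, which overlap Hoxa11 and count the same sites. At Sox14, the members had 10 to 26 reads, and 1, 0 and 7 of 10 motifs were listed. Treated reads at CCAGG motifs within 1 kb of a start site also varied among these genes. They were listed at 7 of 9 CCAGG motifs with 80 reads at Sox14, 10 of 17 with 81 reads at Grin2a and 8 of 14 with 53 reads at Pitx1, but at 0 of 1 at Prdm12 and 0 of 4 at Ostm1.

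Gene lists were counted as genes with a member out of those with a CCGG motif, against 12% for all protein-coding genes, 2.9% of which had at least 2 members and 4.64% an untreated-only site. Since developmental genes have long CpG-rich promoters, members per 100 motifs are given too, against 1.64 for all protein-coding genes. Of the 39 Hox genes, which specify position along the body axis, 22 had a member (56.4%) and 12 had at least 2, with 8.32 members per 100 motifs. Untreated-only sites were found at 2 of the 39. Of 61 other developmental homeobox and T-box genes, 30 had a member (49.2%) and 18 had at least 2, with 7.06 members per 100 motifs, and 2 had an untreated-only site. Both lists were thus above the value of all genes by the count of genes and by the count per motif. The count per motif included motifs listed in the other samples and was not matched by CpG window. In promoters, the share of members differed between windows, as given above. Neighbouring Hox genes share start regions, so these genes are not independent. Members within 40 bp of each other were counted separately in all lists.

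Hoxa11 had 5 members with 11 to 30 reads (chromosome 6), and 3, 5 and 13 of its 19 motifs were listed in the undifferentiated, untreated and treated sample. Hoxb13 and Hoxd10, both posterior genes of their clusters, had 4 members each. At Hoxd10, 1 site with 6 reads was listed in undifferentiated cells, 0 in untreated cells and 9 with 96 reads in treated cells. Hoxa6, Hoxb7, Hoxc4, Hoxc6 and Hoxc11 had 3 members each. At Hoxc6, all 5 motifs were listed with 109 reads in the treated sample, compared with 2 with 28 reads in the untreated sample and 0 in the undifferentiated sample. Members therefore occurred in all Hox clusters, both beside sites that were already listed, as at Hoxc4 with 7 untreated sites of 12 motifs, and in regions with few listed sites, as at Hoxd10.

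In the second list, Pitx1 and Lhx9 are described above. Pax2, a regulator of kidney and midbrain, had 5 members with 10 to 20 reads, and 3, 1 and 13 of 33 motifs were listed with 19, 12 and 124 reads. Pax9 had 4 members, and Lhx5, En1 and Nkx2-1 had 3 each. At Lhx5, which acts in the forebrain, 0, 0 and 5 of 10 motifs were listed.

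Of 19 neural genes, 6 had a member (31.6%), 4 had at least 2, and none had an untreated-only site. Pax7, a factor of neural crest and muscle progenitors, had 5 members with 10 to 31 reads, and 0, 2 and 9 of 26 motifs were listed. Pax6, which directs eye and brain development, had 4 members among 24 treated sites with 384 reads, compared with 9 untreated sites with 213 reads. Dlx2, a gene of forebrain interneurons, had 4 members, and 0, 3 and 7 of 18 motifs were listed. The neural list had 5.52 members per 100 motifs.

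Of 14 endoderm genes with a motif, 4 had a member (28.6%), with 7.14 members per 100 motifs. Pdgfra, a growth factor receptor of primitive endoderm and mesoderm, had 4 members with 13 to 29 reads, and 3, 4 and 11 of its 17 motifs were listed with 19, 38 and 165 reads. Of 18 retinoic acid genes, 6 had a member (33.3%), but only Aldh1a2, which makes retinoic acid, had several (3), and the list had 2.67 members per 100 motifs. Of 12 trophoblast genes, 2 had a member, Eomes and Gata3, with 2 each. Germline genes had a member at 3 of 19, with 3 at Dazl, an RNA-binding protein of germ cells.

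Other lists were near or below the value of all genes, or had few genes. Pluripotency genes had a member at 3 of 24 (12.5%), namely 1 each at Dppa3, Esrrb and Tbx3, and the same number had an untreated-only site. Of the 6 genes whose enhancers the study tested, Esrrb alone had a member. Ribosomal protein genes, taken as housekeeping genes, had a member at 8 of 75 (10.7%), with 0.942 members per 100 motifs. Genes of LSD1 complexes had a member at 2 of 20, Hdac1 with 1 and Gfi1, a repressor that recruits LSD1, with 3. None of the 12 DNA methylation genes, which hold 210 motifs, had a member. Of 24 imprinted genes, 3 had a member and 6 an untreated-only site, and Cdkn1c, a growth inhibitor, had 4 members with 10 to 24 reads. Eomes, Gata3, Dppa3, Esrrb, Tbx3 and Hdac1 are named after their values were seen.

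The reads of other sites around the members were not used by the rule. Other CCGG sites listed in both day 7 samples and 41 bp to 1 kb from a member numbered 18424. They had a median of 21 untreated and 20 treated reads, with a median log2 ratio of treated to untreated reads of −0.22, and 37.3% had more reads in the treated sample. Over all 764804 such sites of the autosomes, the median log2 ratio was −0.46 and 24.9% were higher in the treated sample, and around untreated-only sites the values were −0.40 and 28.1%. In RPM, the medians were −0.090 around members, −0.27 around untreated-only sites and −0.33 overall. The sites near members were thus lower in the treated sample by less than CCGG sites at large. They also had fewer reads. The untreated and treated medians were 34 and 26 over all sites, and 27 and 21 around untreated-only sites. Whether this difference in depth contributes to the ratios was not tested. Around the 4974 members with no treated CCAGG site within 1 kb, a selection added after seeing the data, the median log2 ratio of the reads was −0.34. The −0.40 around untreated-only sites was taken without this selection, so the 2 values are not directly comparable. A listed site of the undifferentiated sample lay within 1 kb of 65.0% of the members, and a listed site of the untreated sample within 1 kb of 69.0%.

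As a measure of reads outside CpG sites, CCAGG motifs were counted. Background reads and methylation outside CpG sites cannot be told apart in these counts. The treated list had at least 10 reads at 12.4% of the 3626370 autosomal CCAGG motifs, compared with 3.73% in the undifferentiated list. The CCAGG values of the untreated list are almost the same numbers as those of the undifferentiated list, so the level in untreated cells on day 7 was not analysed here, and in these lists treatment and day cannot be told apart at this motif. The paper reports more CCWGG sites (CCAGG and CCTGG) in untreated than in treated cells, and fewer in undifferentiated cells. The untreated list used here does not match that report. Of the 3360826 CCAGG motifs without a row in the undifferentiated and untreated lists, 8.30% had at least 10 treated reads. This share cannot be set directly against the 2.55% of the CCGG motifs, because the untreated CCAGG rows add almost nothing to the undifferentiated ones as a filter. By window, the treated CCAGG share was 12.3% in low, 18.5% in intermediate and 7.07% in high CpG windows.

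CCAGG motifs near members were listed more often than elsewhere: 37.7% of those 41 bp to 1 kb from a member had at least 5 treated reads, compared with 24.0% of all CCAGG motifs. The same share was 36.4% near untreated-only sites and 37.7% near sites gained in both day 7 samples, close to that of the members. A treated CCAGG site lay within 1 kb of 67.5% of the members and of 64.5% of the untreated-only sites. Within 40 bp, where fragments are shared, one lay at 12.2% of the members, 7.41% of the untreated-only sites, 2548 of the 23197 sites gained in both and 3.88% of the sites listed in the undifferentiated sample alone. The 4974 members without one within 1 kb, an added selection, had a promoter share of 14.9% and another such member within 1 kb in 9.27%. Whether background reads made up part of the members was not tested. Of the members, 940 (6.13%) had surrounding bases that occur at several places in the genome, and 1 lay at a position where the reference has no CCGG.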

How the data were processed

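The authors trimmed the reads, discarded those lacking an FspEI motif, aligned the rest to GRCm38 (Bowtie2 2.3.3, unique alignments) and deposited a raw count for each site with at least 5 reads. The deposited RPM is the count scaled to the library's mapped reads, whose number was recovered from both columns. Here the 3 lists were joined by position, and only CCGG rows aligned without a change on the 19 autosomes were used. A position with a row of any kind in the undifferentiated or untreated list was left out, which removed 21 sites. Motifs, copies of 28 bases and CpG windows (500 bp, 5 bp overlap) came from the RefSeq GRCm38.p6 genome, and 72109 start sites from GENCODE M21 basic. With 1 library per condition, no test was made. The members and lists were chosen with earlier results of these data known. The named genes were the 20 with the most members, the overlapping or nearest genes of the 10 members with the most reads, the 5 longest chains, and the 25 list genes with the most members, at least 2 each; some of these are not reported here. Python 3.11.15, numpy 2.4.6, pandas 2.3.3 and SciPy 1.17.1 were used, and the functions were tested on simulated data.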

Additional observations from a re-analysis of the deposited data

Results flagged for a closer look

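The sex chromosomes lie outside the rule but held sites of the same kind above the number found in the untreated sample alone. On chromosome X, 459 CCGG sites met the rule in the treated sample, compared with 298 in the mirror set. On chromosome Y, the numbers were 21 and 16. On both, the excess was smaller than on every autosome, where the ratio was between 2.24 and 2.69. These are counts and not shares of the unlisted motifs. Positions where only the reads, and not the reference, have CCGG because of a substitution are left out by the rule and numbered 721 in the treated sample alone, compared with 270 in the untreated sample alone. These differences were not tested.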

How the results depend on the processing

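In 20 recalculations, the value stayed within 1.5 times the count or within the counting interval of the share, and in 25 it did not, as in 8 more that were chosen after seeing the data. With a minimum of 5 reads, 52601 sites at 9859 genes met the rule, with 28.9% in promoters, 34.4% with another within 1 kb, 10.3% in high CpG windows, 34.6% of nearby CCAGG listed and a log2 ratio of −0.30 at neighbours. With a minimum of 20, the values were 2070 sites, a ratio of 4.50, 288 genes, 12.8%, 5.85%, 2.37% and 36.9% of nearby CCAGG. With single-copy sites, the promoter share was 24.3% and the CCAGG share 38.6%. Promoters of 3 kb gave 35.7% and 4864 genes, and 1 kb upstream alone 11.4%. Distances of 500 bp and 5 kb gave 16.5% and 27.8% with another member. Neighbours up to 500 bp away gave a log2 ratio of −0.17 and a CCAGG share of 40.2%, RPM a log2 ratio of −0.090, and CCAGG with at least 10 reads 19.9%. Without a treated CCAGG site within 1 kb, 4974 members at 723 genes were counted, with 14.9% in promoters, 9.27% with another, 4.85% in high CpG windows and a log2 ratio of −0.34. Another member 41 bp to 1 kb away was found for 13.4%, and at a minimum of 14 reads 12.4% had another within 1 kb. The order of the promoter shares, members above untreated-only sites, held at minimums of 5, 10 and 20 reads. The order of the shares with another site within 1 kb did not: at 20 reads it was 5.85% for members and 15.7% for untreated-only sites, and the 12.4% at 14 reads lies below the 16.6% of the untreated-only sites at 10.

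Most members are near the detection limit, and an unlisted site is not an unmethylated one. With 1 library per condition, treatment cannot be told apart from differences between libraries, and at 10 to 71 reads per site single members are imprecise. No paired analysis was possible because each group has 1 sample. Reads at neighbouring members come in part from shared fragments. The CCAGG level of the untreated sample was not analysed here. Gene assignments by distance name the nearest start sites and do not show regulation, and expression was not measured in these libraries.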

Other observations

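Beyond the 5 longest, further long chains are described, picked after their values were seen. Others of similar length lay at genes of other kinds, such as Ache with 9 members, Nxph4 with 7 and Plcxd1 with 6. The chain in Lhx5 had 8 members, and 3, 7 and 21 of its 29 motifs were listed in the undifferentiated, untreated and treated sample. The chain in Nfix, a nuclear factor of brain and muscle (chr8:84784317-84785478), also had 8 members, 6 of them in high CpG windows, and 1, 1 and 13 of 13 motifs were listed with 5, 8 and 152 reads. At Pax2, a chain 5749 bp from the start site had 8 members, and 0, 1 and 11 of 12 motifs were listed. A chain of 7 members lay in Lbx1, a homeobox gene of muscle precursors and spinal cord. Near Dlx2, a chain of 6 members had no listed site in the undifferentiated and untreated samples and 9 listed sites with 132 reads among 15 motifs in the treated sample. In Mir9-3hg, the host gene of a neural microRNA, 5 members had 16 to 29 reads, the highest median (23 reads) among the 30 longest chains.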
